A study of Mus musculus with 9 samples.

Results

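Gapdh, Actb, Hprt, Tbp, Ppia, Ywhaz and Gusb are genes that laboratories commonly use as internal controls in qRT-PCR, where the level of a target mRNA is divided by the level of a gene assumed to stay constant. They were taken by gene symbol from the deposited expression table, and all 7 were present among its 16509 genes. RNA was measured in 9 libraries of MC38, a mouse colon carcinoma cell line. Of these, 3 came from Ctrl cells, 3 from cells given Cu-Cys (copper chloride with cystine) and 3 from cells given Cadict, a material that carries copper, cystine and glucose oxidase with the GE11 peptide that binds EGFR. The labels give DMSO as the Ctrl treatment whereas the paper gives PBS, and neither gives a dose or time for these libraries. In its qRT-PCR work the study divided each target by Gapdh.

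The proteins behind these genes do unrelated jobs. Gapdh is a glycolytic enzyme, Actb is the cytoskeletal beta-actin, Hprt recycles purine bases, Tbp is the TATA-binding subunit of the general transcription factor TFIID, Ppia (cyclophilin A) is a prolyl isomerase, Ywhaz is a 14-3-3 adaptor protein and Gusb is the lysosomal beta-glucuronidase. An internal control is useful only as far as its own mRNA keeps a constant share of the RNA under the treatment studied.

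To show what lies in front of these genes, the bases before the annotated start are printed for the members that RefSeq's promoter table (GRCm38.p6) holds, 5 of the 7. Actb and Ywhaz were not among its entries. Each run is given 5′ to 3′ on the strand of the gene and ends at the base before the start. The windows are Gapdh chr6:125165774-125165873 (minus strand), Hprt chrX:52987978-52988077 (plus), Tbp chr17:15499788-15499887 (plus), Ppia chr11:6415837-6415866 (plus) and Gusb chr5:130003050-130003149 (minus). For Ppia the whole window, the printed bases included, lies in an exon of another annotated Ppia transcript (GENCODE M21), and only its last 30 bases are shown. Capitals mark matches, on either strand, to any of 6 short motifs that were searched. TATAAA is the TATA box and GGGCGG is the GC box. CCAAT is the CCAAT box. The core of metal response elements was searched as TGCACNC and also, as its other common form, as TGCGCNC. The core of antioxidant response elements was searched as TGACNNNGC, which is not present in the printed runs.
Gapdh: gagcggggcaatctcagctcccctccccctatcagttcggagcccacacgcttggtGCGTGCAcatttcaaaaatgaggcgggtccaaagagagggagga
Hprt: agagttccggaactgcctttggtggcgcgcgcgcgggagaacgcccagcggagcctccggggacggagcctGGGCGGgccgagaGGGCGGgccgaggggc
Tbp: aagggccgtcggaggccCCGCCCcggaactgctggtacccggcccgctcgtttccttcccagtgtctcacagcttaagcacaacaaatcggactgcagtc
Ppia: gTATAAAggaagccgcggcgaggctcgtgc
Gusb: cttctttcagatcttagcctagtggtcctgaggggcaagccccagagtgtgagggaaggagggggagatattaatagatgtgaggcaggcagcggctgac
In the 100 bases before the start, Ppia alone of the 5 held TATAAA, which 5.56% of the 32851 windows in the table held. Hprt, Tbp and Ppia held GGGCGG (24.7% of windows), and Gapdh held TGCACNC, read on the opposite strand to the gene (4.04%). None of the 5 held the CCAAT box (18.9%), the form TGCGCNC (7.01%) or the antioxidant core (4.82%). The Gusb window held no match, and 55% of its bases were G or C, which equals the median of all windows, against 77% for Hprt.

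The libraries held 17905771 to 18293056 expected counts each, a narrow range. The composition of those counts differed between groups, and this bears on every level given here. The 100 most abundant genes took 17.2 to 31.1% of a library. The size factors with which the authors scaled their counts were 1.31 to 1.33 in Ctrl, 1.21 to 1.23 in Cu-Cys and 0.617 to 0.637 in Cadict libraries. Among epithelial markers, 4 of the 6 with a row, including Epcam, Krt8 and Krt18, stayed below 1 TPM in all 9 libraries. The summed TPM of these markers was 4.22 to 6.24 in Ctrl, 3.50 to 3.95 in Cu-Cys and 11.5 to 13.2 in Cadict libraries, while that of leukocyte, fibroblast and endothelial markers was 47.3 to 53.4, 30.1 to 32.8 and 24.4 to 28.8. That sum mostly followed the fibroblast marker Pdgfrb (31.4 to 34.9 TPM in Ctrl and 6.82 to 8.30 in Cadict libraries), whereas the macrophage marker Cd68 went from 6.85 to 7.39 TPM in Ctrl to 14.8 to 18.2 in Cadict libraries, and the pan-leukocyte marker Ptprc stayed at or below 0.07. The part of these shifts in the levels below was not tested.

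Levels of different genes can be compared only per transcript length, as in TPM, which corrects counts for length and sets each library to one total. In Ctrl libraries the order from high to low was Ppia (5535 to 5615 TPM), Gapdh (5121 to 5391), Actb (2301 to 2421), Ywhaz (473 to 489), Hprt (209 to 211), Gusb (43.0 to 44.3) and Tbp (38.2 to 38.7), with no overlap between neighbours. In Cu-Cys libraries Ppia (5796 to 6253 TPM) and Gapdh (5661 to 6155) overlapped. In Cadict libraries the last places were exchanged, with Tbp at 14.2 to 18.2 TPM above Gusb at 12.3 to 13.1. The members thus joined some of the most abundant mRNAs to rather rare ones.

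To set the libraries on a common scale, counts were expressed as CPM (counts relative to a fixed library total) after TMM scaling, which assumes that most genes do not change. On that scale Gapdh, Hprt and Ppia rose more than 2-fold in Cadict cells, but less than 2-fold with library totals, FPKM or TPM. Under TMM Ywhaz rose less than 2-fold (a direction that turned with library totals, FPKM or TPM) and Gusb fell. Actb and Tbp did not pass the test under TMM, though both fell with library totals, FPKM and TPM. In Cu-Cys cells the 7 genes stayed within 0.37 of each other on the log2 scale. Ctrl libraries were very even throughout, and Cadict replicate 2 had the highest level of its group for every member but Tbp.

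**Figure D1:**
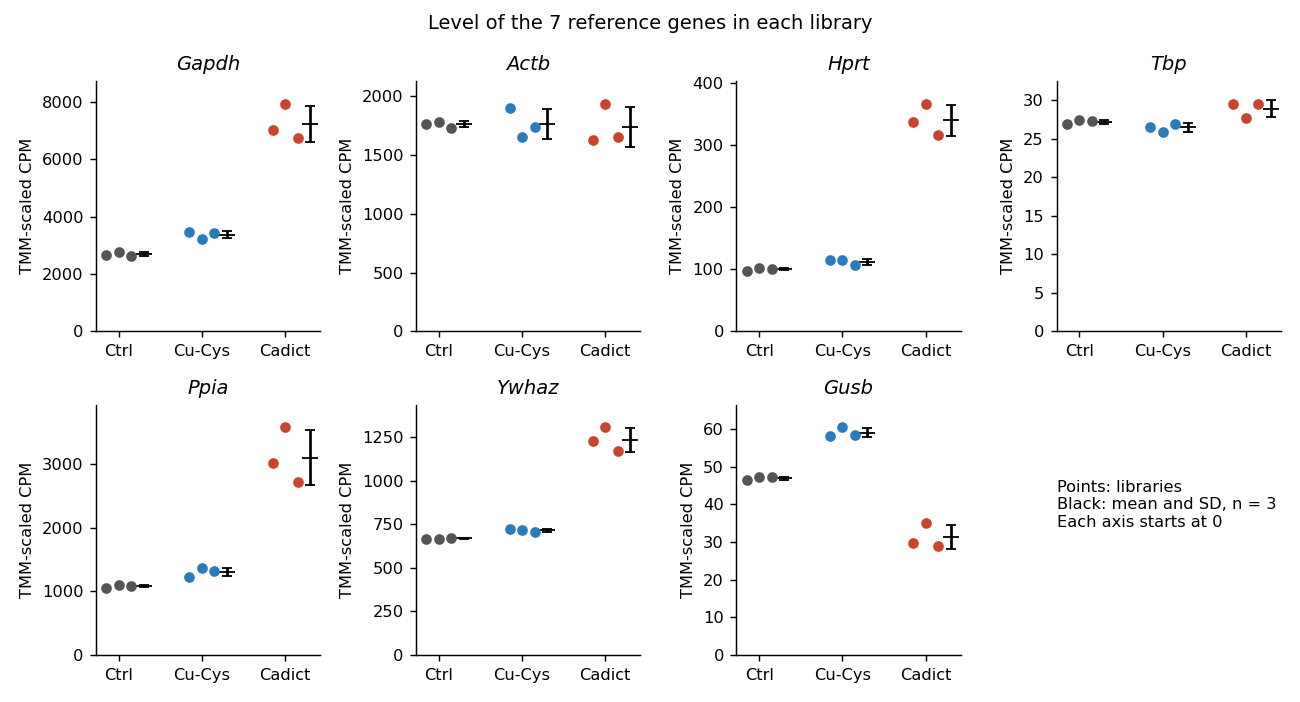
TMM-scaled CPM (linear axes from 0) of the 7 reference genes in the 9 libraries, with the mean and SD of each group (n = 3). Gapdh, Hprt, Ppia and Ywhaz sit higher in the 3 Cadict libraries than in the other 6 (Ywhaz sits lower in TPM), and Gusb sits lower. For Actb the groups overlap on this scale, whereas in TPM the Cadict libraries lie below the other 6.

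Gapdh stood at 2648, 2778 and 2645 TMM-scaled CPM in the Ctrl libraries, at 3481, 3232 and 3419 in the Cu-Cys libraries and at 7039, 7946 and 6758 in the Cadict libraries. The 3 groups did not overlap. The level was 2.69-fold higher in Cadict than in Ctrl cells (log2 fold change 1.43 ± 0.06 SE, 95% interval 1.3 to 1.56, adjusted p = 3.1e-12 by edgeR) and 1.26-fold higher in Cu-Cys than in Ctrl cells (0.33 ± 0.06, adjusted p = 4.5e-04). With library totals in place of TMM the log2 change with Cadict was 0.47 (adjusted p = 2.7e-07 by edgeR), and in TPM it was 0.11. In bulk RNA such as this, fewer cells and less RNA per cell cannot be told apart, and the p-values measure only the spread between these samples, which nothing in the labels describes as separate cultures.

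Actb stood at 1769, 1787 and 1735 CPM in Ctrl, at 1902, 1659 and 1737 in Cu-Cys and at 1631, 1938 and 1657 in Cadict libraries. All groups overlapped, and the Cadict libraries spread most (SD 170.2 CPM against 26.3 in Ctrl). The log2 fold change with Cadict was -0.02 ± 0.07 (95% interval -0.16 to 0.12, adjusted p = 0.803), whereas with library totals in place of TMM it was -0.97 (adjusted p = 1.9e-10). With Cu-Cys it was 0.0017 ± 0.07 (-0.14 to 0.14, adjusted p = 0.987).

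Hprt stood at 97.8, 102 and 101 CPM in Ctrl, at 115, 115 and 106 in Cu-Cys and at 337, 366 and 316 in Cadict libraries. Under TMM it changed most of the 7 genes (with library totals, the geometric mean of the members, FPKM and TPM Gusb did), to 3.39-fold of the Ctrl level with Cadict (1.76 ± 0.06, 1.64 to 1.89, adjusted p = 2.1e-13). With library totals its log2 change with Cadict was 0.81, and in TPM 0.44. The rise with Cu-Cys was small (0.16 ± 0.06, adjusted p = 0.0352). It lost its call when any single Ctrl library, Cu-Cys replicate 1 or Cu-Cys replicate 2 was left out (adjusted p of 0.0679 to 0.124), and with library totals (0.185), the geometric mean of the members (0.994), FPKM (0.239), TPM (0.856) or a filter of 10 counts in every library (0.0645). The geometric mean contains Hprt itself, so it is not an independent scale.

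Tbp, the least abundant of the 7 in Ctrl cells, stood at 26.9, 27.4 and 27.4 CPM in Ctrl, at 26.6, 25.9 and 27.0 in Cu-Cys and at 29.6, 27.7 and 29.6 in Cadict libraries. These levels rest on 318 to 633 expected counts per library. The 3 Cadict libraries lay above the other 6, but the difference from Ctrl was 0.09 ± 0.06 (-0.04 to 0.22, adjusted p = 0.185). It passed as a rise of 0.18 with DESeq2 size factors (adjusted p = 0.0113) and as a fall of -0.86 with library totals (adjusted p = 1.7e-09). With Cu-Cys it was -0.04 ± 0.06 (-0.16 to 0.08, adjusted p = 0.612).

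Ppia stood at 1059, 1103 and 1085 CPM in Ctrl, at 1230.0, 1360 and 1313 in Cu-Cys and at 3019, 3578 and 2719 in Cadict libraries, with no overlap between groups. The rise with Cadict was 2.87-fold under TMM (1.52 ± 0.08, 1.35 to 1.69, adjusted p = 3.6e-11), but 0.56 on the log2 scale with library totals and 0.17 in TPM. That with Cu-Cys was 1.20-fold (0.27 ± 0.08, adjusted p = 0.012), and it lost its call without Cu-Cys replicate 2 (adjusted p = 0.0552), in FPKM (0.156), in TPM (0.107) and with the geometric mean, which contains Ppia itself (0.178). Under TMM Ppia had the widest scatter of the 7 within groups, with an SD of 0.12 on the log2 scale. In TPM Tbp had the widest (0.11, against 0.052 for Ppia).

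Ywhaz stood at 666, 666 and 672 CPM in Ctrl, at 721, 717 and 707 in Cu-Cys and at 1225, 1305 and 1170.2 in Cadict libraries. The groups did not overlap. The level was 1.85-fold higher with Cadict under TMM (0.88 ± 0.05, 0.78 to 0.99, adjusted p = 8.4e-11) but -0.07 on the log2 scale with library totals (adjusted p = 0.151). With Cu-Cys the difference was 0.10 ± 0.05 (-0.01 to 0.20, adjusted p = 0.117), and it passed the test with DESeq2 size factors (adjusted p = 0.0435), the DESeq2 Wald test (0.0115) and limma on size-factor counts (0.0485). It also passed without Cadict replicate 2 (0.016), since all groups share one estimate of the spread.

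Gusb stood at 46.5, 47.1 and 47.2 CPM in Ctrl, at 58.2, 60.4 and 58.4 in Cu-Cys and at 29.7, 34.9 and 29.0 in Cadict libraries. It was the only member that rose with one treatment and fell with the other. It rose with Cu-Cys (0.33 ± 0.06, 0.20 to 0.46, adjusted p = 5.1e-04) and fell with Cadict (-0.59 ± 0.07, -0.73 to -0.44, adjusted p = 7.3e-07). Under Cadict it stood at -1.54 with library totals and at -1.78 in TPM. Between the 2 treatments it differed by -0.92 ± 0.07 (-1.06 to -0.77, adjusted p = 3.1e-09).

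Counted over the 7 genes, 4 rose and 1 fell with Cadict at an adjusted p of at most 0.05, where 40.6% of the 11949 genes tested rose and 47.1% fell. At the study's threshold, a 2-fold change with an adjusted p of at most 0.001, 3 rose and 0 fell, against 20.7% and 27.1% of all genes. With library totals or FPKM these counts became 0 and 1, and in TPM 0 and 3. Of the 11949 genes, 828 rose and 6148 fell by that rule with library totals. In FPKM 613 rose and 4956 fell, and in TPM 389 and 6475 (pseudocount of 1). With Cu-Cys 4 rose and 0 fell (22.6% and 22.4% of all genes), and 0 reached the study's threshold in either direction (0.167% and 1.47%). Between Cadict and Cu-Cys 4 were higher and 1 lower (40.3% and 45.6%), and 3 were 2-fold higher and 0 lower (18.6% and 23.6%). The comparisons with Ctrl share the Ctrl libraries, as both Cadict comparisons share the Cadict libraries.

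**Figure D2:**
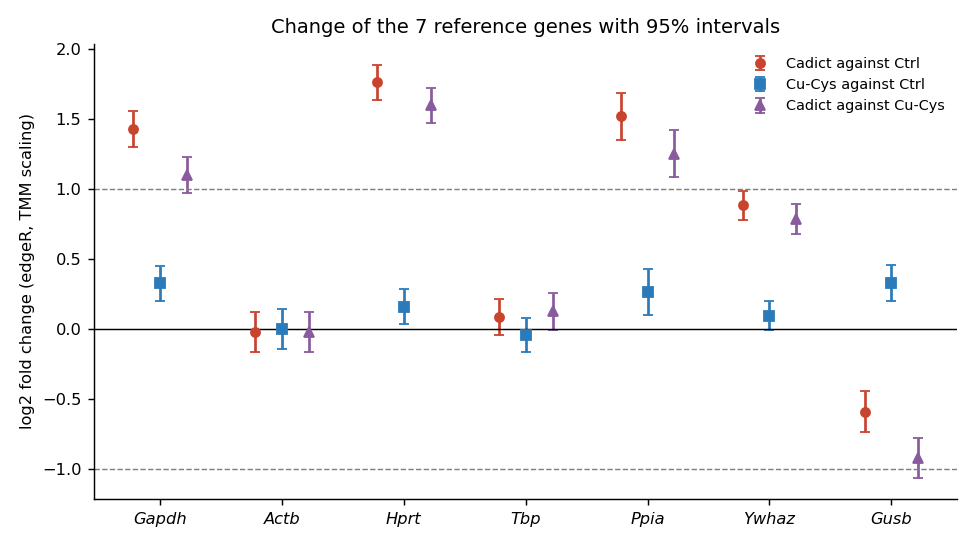
log2 fold change (edgeR, TMM scaling) of each reference gene in the 3 comparisons; bars are 95% intervals and dashed lines mark a 2-fold change. With Cadict, Hprt, Ppia and Gapdh lie above the upper line and Actb and Tbp have intervals that include 0 (both fell with library totals), while with Cu-Cys no interval leaves the range from -0.5 to 0.5.

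The median absolute log2 change of the 7 genes with Cadict was 0.88, against 1.00 for all genes tested, and with Cu-Cys it was 0.16 against 0.20. With Cadict, 2 of the 7 (Actb and Tbp) had a 95% interval wholly within 0.5 of no change, as did 15.7% of all genes. With Cu-Cys all 7 did, as did 65.8% of all genes. The median signed change was 0.88 with Cadict for the members and -0.13 for all genes.

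The deposited table gives each gene on 4 scales, and the direction of a reference gene with Cadict depended on which was read. The expected count is the number of read pairs or reads assigned to a gene, FPKM divides it by length and library total, TPM divides it by the sum of all length-corrected values, and the size-factor count divides it by one factor per library. On size-factor counts 6 of the 7 genes had a higher mean in Cadict than in Ctrl libraries and 1 a lower mean. On expected counts, FPKM and TPM alike, 3 were higher and 4 lower.

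Actb showed this most plainly. Its expected counts were 40910.0, 41270 and 39792 in Ctrl, 41215, 36268 and 38092 in Cu-Cys and 19192, 22233 and 19729 in Cadict libraries, so Cadict libraries held about 0.501 times as many. In TPM the ratio was 0.397, from 2421, 2381 and 2301 in Ctrl to 907, 941 and 972 in Cadict libraries. On size-factor counts it was 1.05, from 30861, 31251 and 30438 to 30527, 36009 and 30985, with overlapping groups.

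Gapdh went the other way. Its TPM was 5276, 5391 and 5121 in Ctrl, 6155, 5661 and 6091 in Cu-Cys and 5691, 5607 and 5751 in Cadict libraries, a Cadict to Ctrl ratio of 1.08. Its size-factor counts were 46183, 48597 and 46400 in Ctrl and 131755, 147659 and 126400 in Cadict libraries, a ratio of 2.87. The same gene was thus close to level on one deposited scale and nearly tripled on another.

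The other members moved by similar steps. On the log2 scale the Cadict to Ctrl ratio in TPM and in size-factor counts was 0.44 and 1.86 for Hprt, -1.22 and 0.18 for Tbp, 0.17 and 1.61 for Ppia, -0.41 and 0.98 for Ywhaz, and -1.78 and -0.49 for Gusb. Hprt, Ppia and Gapdh had higher means in Cadict libraries on all 4 scales, and Gusb had lower means on all 4. Actb, Tbp and Ywhaz changed sign. For Cu-Cys against Ctrl the ratios stayed between -0.18 and 0.36 on all 4 scales.

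**Figure D3:**
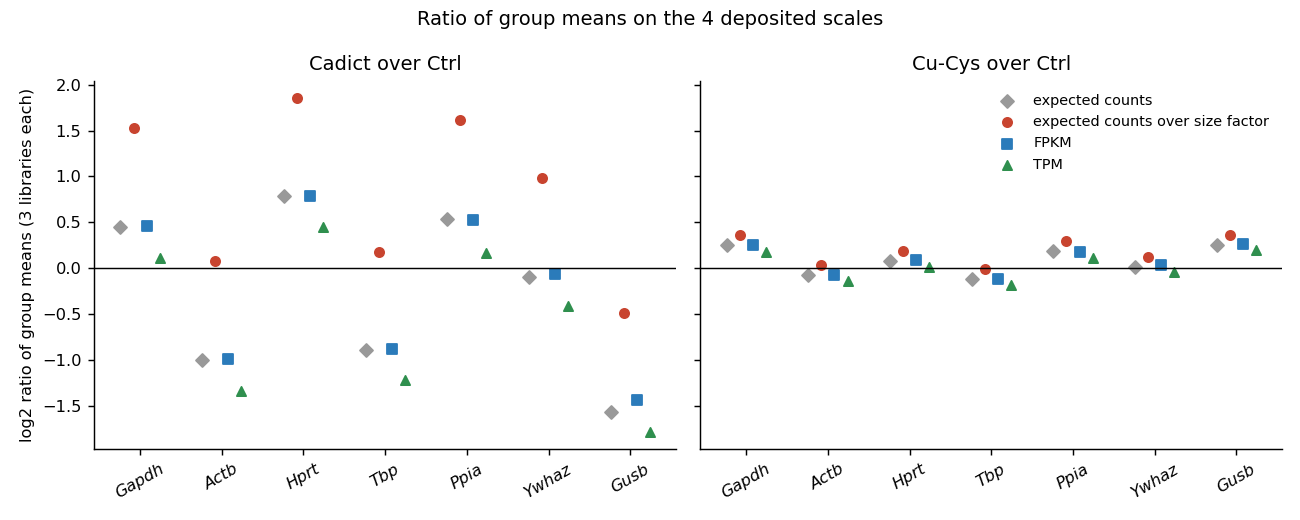
log2 ratio of group means (3 libraries each) on the 4 deposited scales, for Cadict over Ctrl (left) and Cu-Cys over Ctrl (right). With Cadict the size-factor counts of each gene lie above its values on the other scales and the 7 genes keep one order on every scale. With Cu-Cys the scales lie closer together, but Actb and Ywhaz change sign between them.

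What the scales share is the order of the members and the distance between them. From highest to lowest the Cadict to Ctrl ratio ran Hprt, Ppia, Gapdh, Ywhaz, Tbp, Actb and Gusb on each of the 4. The 7 log2 ratios of Cadict to Ctrl spanned 2.35 on expected counts, 2.35 on size-factor counts, 2.22 on FPKM and 2.23 on TPM. For Cu-Cys they spanned 0.37 to 0.38. The files hold no spike-in and no measure of RNA per cell that would fix the zero of this axis, so whether Gapdh rose or Actb fell per cell was not tested.

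The scale also decided which gene looked most stable over the 9 libraries. By the SD of log2 TMM-scaled CPM, Tbp (SD 0.064) and Actb (0.087) ranked 51 and 172 from the smallest among 8551 genes averaging at least 10 CPM, whose median SD was 0.45. Without Cadict replicate 2 the rank of Tbp was 131, and without Cadict replicate 1 or 3 it was 33 or 35. Gusb (0.41) and Ywhaz (0.42) were near that median, and Gapdh (0.65), Ppia (0.71) and Hprt (0.85) were above it.

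With library totals as the only scaling, Ywhaz had the smallest SD of the 7 (0.052, rank 18), and Tbp and Actb had 0.41 and 0.48. In TPM, Ppia (0.087, rank 90) and Gapdh (0.088, rank 98) were smallest, with Tbp at 0.58 and Actb at 0.64. Gusb was the least stable on library totals, FPKM and TPM (0.80 to 0.94), and Hprt the least stable under TMM. On the deposited size-factor counts Actb (0.089) and Tbp (0.099) again had the smallest SDs, in exchanged order.

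Ratios between 2 members do not depend on how a library is scaled. The 7 genes form 21 pairs, and for each pair the log2 ratio of expected counts was taken in each library. With Cadict the ratio changed at least 2-fold in 10 pairs, and with Cu-Cys in 0. Pairs of other genes were not counted, so no share over all genes stands beside these numbers. The median absolute change was 0.90 with Cadict and 0.17 with Cu-Cys. An exact permutation test of 3 libraries against 3 cannot give a two-sided p below 0.1, so ratios were tested in the edgeR fits in which a single member set the library scale.

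The pairs that held together best were Gapdh with Ppia, whose log2 ratio had an SD of 0.10 over the 9 libraries, and Actb with Tbp, with 0.13. In both the Ctrl and Cadict libraries overlapped, and these were the only 2 pairs of the 21 in which they did. Overlap was not counted for pairs of other genes either. With Cadict, 40.6% of all genes rose and 47.1% fell at an adjusted p of at most 0.05 by edgeR under TMM. Those are shares of single genes by a test, so they give no share of pairs that overlap. The change with Cadict was -0.08 for Gapdh over Ppia (adjusted p = 0.31 with Ppia as the scale) and -0.11 for Actb over Tbp (adjusted p = 0.26 with Tbp as the scale). The pair that parted most was Hprt and Gusb, whose ratio was 5.10-fold higher in Cadict than in Ctrl libraries (adjusted p = 5.8e-14 with Gusb as the scale). These pairs were picked as extremes of the 21 in the same libraries, and the adjustment covers genes and not that choice. Gapdh over Actb was at most 1.56 in the Ctrl libraries, 1.83 to 1.97 in the Cu-Cys libraries and 4.08 to 4.32 in the Cadict libraries.

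The average pairwise variation M, which the geNorm method uses to rank reference genes, is the mean SD of a gene's log2 ratios to the other members. Over the 9 libraries it was 0.43 for Ywhaz, 0.47 for Gapdh, 0.50 for Ppia, 0.51 for Tbp, 0.53 for Actb, 0.62 for Hprt and 0.83 for Gusb. Ywhaz came first, and its own change with Cadict, 0.88, was the middle value of the 7. A middle value lies close to the others by construction, so this rank does not show that Ywhaz was stable. Within one group M was far smaller, with means over the 7 genes of 0.024 in Ctrl, 0.081 in Cu-Cys and 0.098 in Cadict libraries, 0.12 in Ctrl and Cu-Cys together, and 0.56 over all 9.

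How much the choice matters was read from the transcripts that the study measured by qRT-PCR, namely Cd274 (the gene of PD-L1), Eif2a, Eif5a, Eif5b and Eif2b, for which the subunit gene Eif2b1 was taken because the paper gives no number. Each was divided by each member in every library. The sign of the Cadict effect was the same for all 7 denominators in 2 of the 5 targets.

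Eif2a, an initiation factor, had 2879, 2998 and 3099 expected counts in Ctrl, 3011, 3373 and 3195 in Cu-Cys and 2778, 2622 and 2750.0 in Cadict libraries. Divided by Actb it was 1.82-fold higher with Cadict (log2 0.86, SD within groups 0.14), and divided by Tbp 1.68-fold higher (0.75, SD 0.066). Divided by Gapdh it was 0.665 times the Ctrl level (-0.59, SD 0.12), and divided by Hprt 0.527 times (-0.92, SD 0.091). The Ctrl and Cadict libraries did not overlap with any of these 4 denominators, although the directions were opposite. Divided by Ywhaz the change was -0.05 (SD 0.077).

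Eif2b1, a subunit of the exchange factor for eIF2, ranged in the same way from -1.15 with Hprt to 1.20 with Gusb, with 3 denominators giving a higher and 4 a lower value. Eif5b, a factor for joining ribosomal subunits, ranged from -2.09 with Hprt to 0.26 with Gusb, and was lower with 6 of the 7. Over Actb it was 0.808 times the Ctrl level (-0.31) and over Gapdh 0.296 times (-1.76). Here the direction was shared by 6 denominators but the size differed several-fold.

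Eif5a, an elongation factor, was higher with all 7 denominators, from 1.25-fold over Hprt to 6.37-fold over Gusb, with 1.57-fold over Gapdh and 4.3-fold over Actb. Cd274 was lower with all 7, from -3.51 over Hprt to -1.16 over Gusb. It had 70, 65 and 75 counts in Ctrl, 74, 56 and 46 in Cu-Cys and 10, 9 and 13 in Cadict libraries, so the counting error is largest here. The range of a target over the denominators equals the span of the members themselves, so it is the same for every target.

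**Figure D4:**
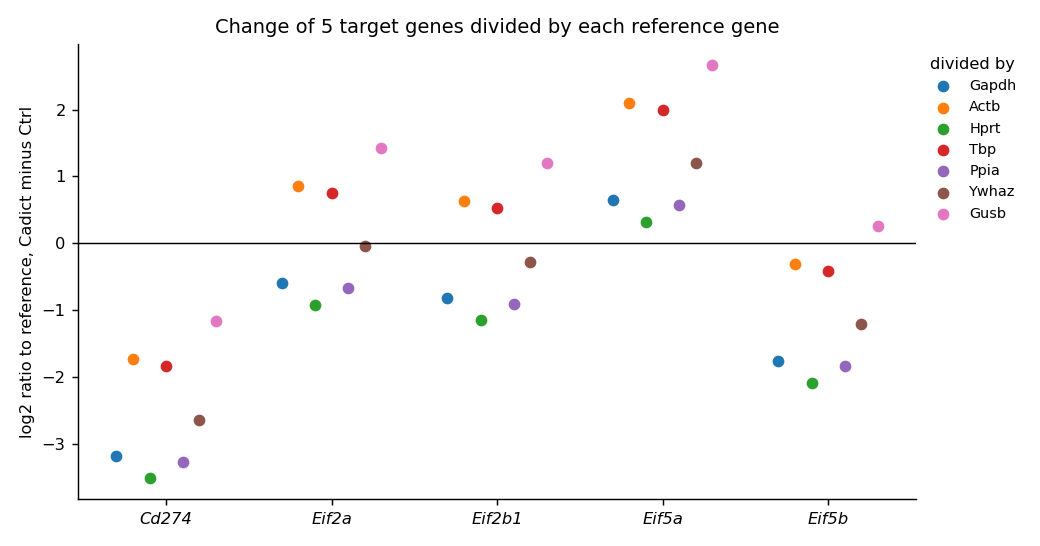
log2 ratio of each of 5 targets to each of 7 reference genes, as the mean of Cadict minus the mean of Ctrl libraries (n = 3 each). For Eif2a and Eif2b1 the points lie on both sides of 0, for Eif5a all lie above it and for Cd274 all lie below it.

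The same holds for the whole transcriptome. When the library scale was set by one member alone and the edgeR model was fitted to all 11949 genes, the Cadict comparison at the study's threshold gave 442 higher and 7629 lower genes with Gapdh, 324 and 8713 with Hprt, 408 and 7923 with Ppia, and 910 and 5882 with Ywhaz. Actb gave 2516 and 3170, Tbp 2253 and 3473, and Gusb 4166 and 1846. TMM gave 2472 and 3235. The median log2 change of all genes was -1.55 when scaled by Gapdh, -0.10 by Actb, -0.21 by Tbp and 0.47 by Gusb, a shift that follows from the change of the scaling gene itself under TMM. The geometric mean of the 7 gave 1120 higher and 5362 lower.

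**Figure D5:**
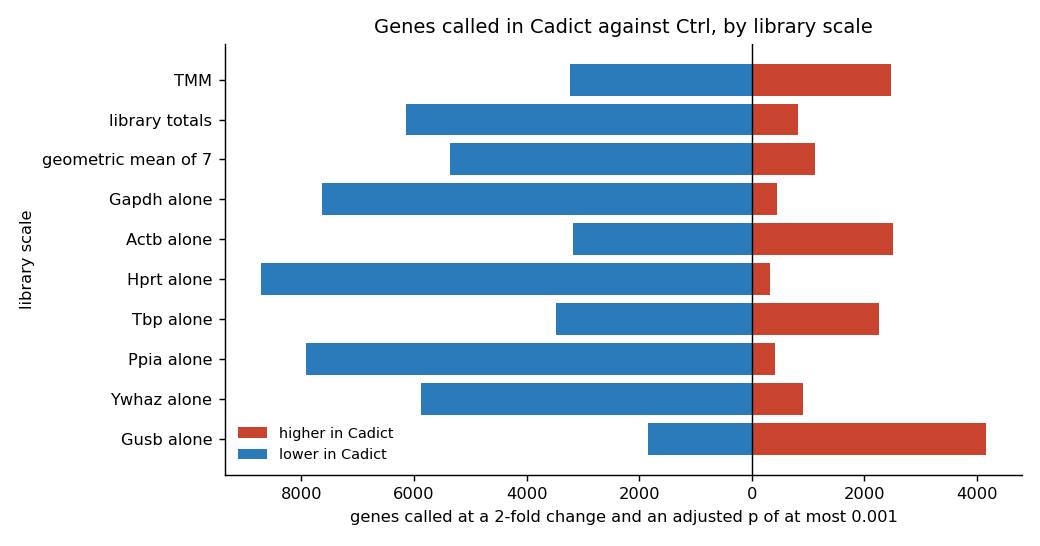
Number of genes called at a 2-fold change and an adjusted p of at most 0.001 in Cadict against Ctrl, higher to the right and lower to the left, for 10 ways to set the library scale (linear axis). The split runs from 324 higher and 8713 lower when scaled by Hprt to 4166 higher and 1846 lower when scaled by Gusb.

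Reads of several members could also come from copies elsewhere in the genome. Of the 50-base stretches in the coding sequence annotated for Gapdh (GENCODE M21), 93.5% occurred in transcripts of other genes, 212 of these 217 genes being pseudogenes. The share was 93.4% for Ywhaz (3 other genes) and 91.0% for Ppia (36). It was 18.1% for Actb and 0% for Hprt, Tbp and Gusb. The pseudogene Gm29667, which shares stretches with Gapdh, held 56.2 to 120.2 counts a library, and Gm9234, which shares them with Ppia, held 11 to 23.8. The protein-coding genes Peli2 and Gclm have annotated transcripts that share stretches with Gapdh and Ppia, and held 92 to 232 and 907 to 5969 counts, against 24494 counts or more for Ppia.

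Among the sharing genes with counts here, the most abundant was Actg1, a paralog of Actb, which held 83059 to 106349 counts. Actg1, the other cytoskeletal actin, rose with Cadict under TMM (1.13 ± 0.06, adjusted p = 4.7e-11), though it stood at -0.18 in TPM, and how reads were divided between them could not be seen in the table. Expected counts that are not whole (by more than 0.001) can arise where reads were shared out, but whole counts do not show that none were. Counts that were not whole occurred in 9 of the 9 libraries for Gusb, 8 for Gapdh, 7 for Ppia, 2 for Actb and 0 for Hprt, Tbp and Ywhaz. This did not follow the shared stretches, which were 0% for Gusb and 93.4% for Ywhaz.

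The length that the deposited values imply (expected count divided by FPKM and by the library total) was another readout. It was nearly constant for 6 of the members, for example 1089 ± 5.76 bases (SD, n = 3) in Ctrl and 1102 ± 3.20 in Cadict libraries for Gapdh. For Ppia, the shortest, it was 413 ± 5.70 and 426 ± 3.23 bases, 3.04% longer. In bases the step was similar for Gapdh, Actb (1587 to 1600), Hprt (1016 to 1029) and Tbp (1509 to 1521), so it was not particular to Ppia. Ywhaz went from 2976 to 2960 bases. Gusb alone became shorter by more than 1%, from 2296 ± 12.4 bases in Ctrl and 2290.2 ± 27.6 in Cu-Cys to 2131 ± 58.9 in Cadict libraries, 7.17% less. In the FPKM this length enters as the divisor, and the Gusb log2 ratio of Cadict to Ctrl was -1.43 in FPKM and -1.56 in expected counts.

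The genes whose profile over the 9 libraries lay nearest to each member, by Euclidean distance of centred log2 CPM among 8547 genes, were Slc25a3 for Gapdh (distance 0.076), Gnl1 for Actb (0.15), Pcmt1 for Hprt (0.089), Adar for Tbp (0.078), H2az1 for Ppia (0.12), Hpf1 for Ywhaz (0.080) and Nol12 for Gusb (0.13). Slc25a3, the mitochondrial phosphate carrier, stood at 321, 401 and 853 CPM in Ctrl, Cu-Cys and Cadict libraries. The 3 genes with the smallest SD under TMM scaling were Arl1 (0.029), Ttpal (0.032) and Mib1 (0.037). They depended on the scale as Tbp did, with SDs of 0.55 to 0.61 in TPM. Of the 100 genes with the smallest SD under TMM, 0 were among the 100 smallest under library totals, FPKM or TPM, and 45 were among the 100 smallest on the deposited size-factor counts.

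Each member was then read beside the genes of its own pathway or family. Counts are given at an adjusted p of at most 0.05, first under TMM, where the median of all genes was -0.13 with Cadict, and then with library totals, where it was -1.08. Under TMM 40.6% of all genes rose and 47.1% fell. With library totals the share at 0.05 was not counted, but at the study's threshold 828 of 11949 genes rose and 6148 fell. Falls with library totals were thus common among all genes and are not particular to a family. Among 14 tested glycolytic genes beside Gapdh, 8 rose and 3 fell with Cadict under TMM (median 0.50), and 2 rose and 10 fell with library totals. Of the phosphofructokinase genes, Pfkl and Pfkm fell on both scales, Pfkl by -3.24 ± 0.07 (adjusted p = 1.4e-15) and Pfkm by -1.51 ± 0.07 (1.5e-11) under TMM. Gapdh, at 1.43, lay above the highest of the 14, Pkm at 1.19, an order that the scale of a library does not alter.

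Of 4 tested actins other than Actb, 3 rose and 0 fell under TMM, and 3 rose and 1 fell with library totals. Acta2, the smooth muscle actin, stood at 0.13 ± 0.08 (adjusted p = 0.111) under TMM and at -0.82 with library totals. Of 6 purine salvage genes beside Hprt, 4 rose and 2 fell under TMM, and 0 rose and 6 fell with library totals. Prps2, which makes the ribose donor that Hprt uses, changed by -2.09 ± 0.07 and the adenosine deaminase gene Ada by -0.91 ± 0.10 under TMM. Hprt, at 1.76, lay above the highest of them, Adk at 0.81.

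Of the 13 TFIID subunits that assemble with Tbp, 5 rose, 6 fell and 2 did not pass under TMM (median -0.01), and 2 rose and 10 fell with library totals. They ranged from Taf6 at -2.53 ± 0.09 to Taf9 at 1.54 ± 0.06. Of 14 cyclophilins beside Ppia, 11 rose and 3 fell under TMM, and 3 rose and 7 fell with library totals. Ppid (2.53 ± 0.06) and Ppib (1.54 ± 0.07), a chaperone partner and an isomerase of the endoplasmic reticulum, changed most among them, with Ppia at 1.52.

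All 6 other 14-3-3 genes rose under TMM (median 0.68), whereas 2 rose and 4 fell with library totals. Ywhag (2.37 ± 0.05) and Ywhab (1.33 ± 0.05) rose on both scales, though Ywhab stood at 0.02 in TPM (adjusted p = 0.814), and Ywhaz at 0.88 lay between them and the median of its family under TMM. Of 11 lysosomal genes that degrade glycosaminoglycans as Gusb does, 6 rose and 4 fell under TMM, and 1 rose and 8 fell with library totals. The sulfamidase gene Sgsh (-2.49 ± 0.10) and the glucosaminidase gene Naglu (-2.39 ± 0.11) lay furthest below, and Hgsnat (2.09) furthest above, with Gusb at -0.59.

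Other genes used as references were read in the same way. Of 18 further qRT-PCR reference genes, 12 rose and 4 fell with Cadict under TMM, and 9 rose and 9 fell with library totals. At the study's threshold under TMM 9 rose and 3 fell, where 20.7% and 27.1% of all genes did. Their median absolute change under TMM was 1.32, against 1.00 for all genes. Among the largest changes were those of the ribosomal protein genes Rpl13a (2.38 ± 0.10) and Rps18 (2.20 ± 0.10). The smallest changes under TMM were those of Ipo8 (-0.07 ± 0.07, adjusted p = 0.33), Eif4a2 (-0.09 ± 0.05, adjusted p = 0.0867) and Sdha (0.20 ± 0.05, adjusted p = 0.0017), but with library totals all 3 fell, by -1.02, -1.04 and -0.76. Eif4a2 did rise with Cu-Cys (0.34 ± 0.04, adjusted p = 2.6e-05).

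Of 11 mouse orthologs of genes described as constitutively expressed across human tissues, 11 rose with Cadict under TMM (median 1.55), and 9 rose and 2 fell with library totals. Under TMM 9 of the 11 passed the study's threshold as rises, where 20.7% of all genes did. Reep5 (0.36 ± 0.07) and Gpi1 (0.50 ± 0.06) turned to -0.60 and -0.45 with library totals, and Snrpd3 (1.19 ± 0.07) to -0.18 in TPM. The largest values were those of 4933434E20Rik (2.17 ± 0.07), Psmb2 (2.16 ± 0.06) and Emc7 (1.92 ± 0.07). With Cu-Cys 7 of the 11 and 9 of the 18 rose under TMM, 0 and 1 fell, and 0 reached the 2-fold threshold. Of all genes 22.6% rose and 22.4% fell with Cu-Cys at an adjusted p of at most 0.05 under TMM.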

How the data were processed

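RNA of MC38 cells was profiled in 9 libraries (3 each of Ctrl, Cu-Cys and Cadict). The labels describe poly(A) selection, a column kit and DNA nanoball sequencing, but TRIzol and an Illumina instrument stand in the paper's methods. In the 1 table the authors deposited, each gene and library has an expected count, its TPM, its FPKM and a signal. The signal fits the expected count rounded up and then divided by 1 size factor per library. The submitters' processing notes list HISAT2 2.1.0, Bowtie2 2.3.4.3, RSEM 1.3.1, GRCm39 and GRCh38.p13 without roles. Columns headed CC and CCGE were read as Cu-Cys and Cadict, the latter by its components. Columns of group averages, 12 in all, were left out.

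Expected counts were rounded and fitted in R 4.3.3 with edgeR 4.0.16 (filterByExpr, TMM, glmQLFit and glmQLFTest, 3 groups in 1 model), and p-values were adjusted by Benjamini-Hochberg over 11949 genes. Alternatives used DESeq2 1.42.0 and limma 3.58.1 on log2 of the deposited values plus a pseudocount of 1 or 0.1. Scripts were tested on simulated counts. Members and gene lists were chosen with earlier results of these data known. Beside the members and the study's qRT-PCR targets, genes were named by rank: the 2 largest changes in each family with a mean of at least 10 CPM, the 3 smallest and 3 largest in each list of other reference genes, the 3 smallest SDs and the nearest profile to each member. A gene that this rule also named is not reported here. Lowest or highest genes of a list outside this rule (Pkm, Adk, Hgsnat) and genes sharing sequence were named after their values were seen. Correlations of same-numbered replicates between groups were -0.20 to 0.15, so numbers were not treated as pairs.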

Additional observations from a re-analysis of the deposited data

How the results depend on the processing

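The span of the members' changes with Cadict was 2.35 under each scaling of counts and 2.13 to 2.22 in FPKM and TPM, but the zero moved, and the cause was not tested. The members' median log2 change with Cadict was 0.88 under TMM, 0.98 with DESeq2 size factors, the DESeq2 Wald test and limma on size-factor counts, 0.16 scaled by the 7 members' geometric mean, -0.070 by library totals, -0.063 in FPKM and -0.41 in TPM (both pseudocounts). Against Cu-Cys it was 0.70 with no filter on low counts, 0.23 by the geometric mean, -0.10 by library totals, -0.094 in FPKM and -0.37 in TPM. For Cu-Cys against Ctrl it was -0.00077 by the geometric mean and 0.015 in TPM. Scaling by the geometric mean removes the members' shared change by construction, so its values are not an independent check of the members. Library totals put the median of all genes at -1.08 with Cadict. With them, 3 members rose and 3 fell with Cadict, as in FPKM, 3 rose and 4 fell in TPM, and 1 passed the 2-fold threshold, as a fall, in both Cadict comparisons with library totals or FPKM, in place of 3 rises. In TPM 3 members passed it against Ctrl, all as falls. Of the 11949 genes, 6148 fell past it with Cadict against Ctrl with library totals, 4956 in FPKM and 6475 in TPM (pseudocount 1). At 0.05 the share of all genes was not counted on these scales. With Cu-Cys, 2 rather than 4 members passed at 0.05 in FPKM and in TPM.

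Single genes that changed sign were these. Tbp with Cadict was -0.86 by library totals, -0.63 by the geometric mean, -0.83 in FPKM and -1.17 (pseudocount 1) or -1.22 (0.1) in TPM, and against Cu-Cys -0.76, -0.43, -0.72, -0.995 and -1.03. Ywhaz was -0.070, -0.063 and -0.41 by library totals, FPKM and TPM against Ctrl and -0.10, -0.094 and -0.37 against Cu-Cys. Gapdh in TPM was -0.070 against Cu-Cys. Actb was 0.077 with DESeq2 (both uses) and 0.071 with limma on size-factor counts against Ctrl, and 0.045, 0.045 and 0.043 against Cu-Cys. Actb with Cu-Cys was -0.067 by library totals, -0.073 in FPKM, -0.16 by the geometric mean, -0.022 with at least 10 counts in every library and -0.15 in TPM. By the geometric mean Hprt and Ywhaz with Cu-Cys were -0.00077 and -0.066, and Ywhaz in TPM was -0.041. Tbp passed the test as a rise of 0.18 with DESeq2 size factors, the Wald test and limma on size-factor counts (adjusted p of 0.0113 to 0.0281). The median SD of the members was 0.22 in TPM against 0.42, and the median range of a target over denominators was 2.23 in TPM against 2.35.

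Leaving out 1 library at a time gave 5 to 6 members called at 0.05 with Cadict, 2 to 5 with Cu-Cys (2 without Cu-Cys replicate 2) and 5 to 7 between them. Actb then ranged from -0.10 to 0.026 with Cadict (called without Cadict replicate 2, adjusted p = 0.0393), -0.061 to 0.046 with Cu-Cys and -0.11 to 0.037 between them, where Tbp was also called without Cadict replicate 2 (adjusted p = 0.0409). Eif2a over Ywhaz ranged from -0.080 to 0.0063. With the replicate block, the members' median with Cadict stayed at 0.88 and no member's call changed. The same-numbered samples share only a number. Scaling by a single member was chosen after seeing the data.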
